A study of Mus musculus with 3 samples.

Results

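Type 1 conventional dendritic cells (cDC1) of the mouse liver were chosen by their UMIs of 4 transcripts from 2 single-cell libraries. UMIs are unique molecular identifiers, 1 per captured RNA molecule. A member had at least 3 UMIs of Xcr1, Clec9a, Wdfy4 and Naaa together, with at least 1 from Xcr1 or Clec9a. It also had at most 2 UMIs of the Kupffer cell (KC) genes Clec4f and Vsig4 and none of Siglech, Cd209a, Cd3e or Cd79a, which mark plasmacytoid dendritic cells (pDCs), type 2 conventional dendritic cells (cDC2s), T cells and B cells. Of 42971 cells with 200 to 4000 genes and at most 25% mitochondrial UMIs, 383 met the rule. The levels of the 4 transcripts are therefore a description of the choice.

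The study asked how liver macrophages of wild-type (WT) and Chi3l1-/- mice fare in fatty liver disease, where Chil1 is the gene for the chitinase-like protein Chi3l1. Non-parenchymal liver cells were captured with the BD Rhapsody system, which tags each molecule of a cell, although the sample labels name parenchymal cells. The mice were on a C57BL/6J background, Chi3l1-/- mice lack the gene in every cell, and the study describes its single cells as coming from mice on 1 of 2 diets for 16 weeks. These were normal chow (NCD) and a diet high in fat and cholesterol (HFHC). Age and the number of mice per library are not given in the sources used here, and males were the usual choice.

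The WT library comes from WT mice. It was tied to its sample by elimination and its diet is not settled. That sample is titled MCD, the short name of the methionine-choline deficient diet that the study used in other experiments, the header of the table names the library APAP0h, and the study describes an NCD library. The HFHC pool holds WT and Chil1-/- mice fed the HFHC diet in a single library, and the table used here gives no genotype per cell. With 1 library per group no test between groups can be made. Library, capture, diet and the mix of genotypes cannot be told apart, and each interval given here is a 95% interval that covers counting error only.

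As background, cDC1 take up dead cells through Clec9a, a receptor for exposed actin, and present the antigens on MHC class I to CD8 T cells, a route called cross-presentation that needs Wdfy4. They carry Xcr1, the receptor for the chemokine Xcl1 that natural killer (NK) cells and CD8 T cells make. Irf8 and Batf3 are the transcription factors that set up and keep the lineage, Id2 keeps the pDC program off, and Flt3 is the growth factor receptor on which dendritic cells depend. In the liver they sit among KCs, monocyte-derived macrophages and sinusoidal endothelium.

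The WT library held 222 members, or 0.951% (0.830 to 1.08%) of 23346 kept cells, and the HFHC pool 161 members, or 0.820% (0.699 to 0.957%) of 19625. These are exact binomial (Clopper-Pearson) intervals. In an alternative, each cell was thinned to 1000 UMIs before the rule and shallower cells were left out. The shares were then 1.06% (0.901 to 1.24%) of 14402 cells and 0.622% (0.492 to 0.777%) of 12370. The upper limit of 4000 genes was kept there, and thinning without it was not run. Members were deeper than most cells: their UMIs per cell ran from 751 over a median of 6014.5 to 17047 in the WT library and from 489 over 9700 to 24998 in the pool, against medians of 1322.5 and 1622 over all kept cells. The limit of 4000 genes acted unequally on this class. Above it stood 2 further cells in the WT library, 0.893% of the 224 that met all other criteria, and 31 in the pool, 16.1% of 192. With them the shares were 0.957% (0.836 to 1.09%) and 0.939% (0.812 to 1.08%). No 2 members shared a cell index between the libraries, and 7 members shared one with a kept cell of the other library.

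Since Irf proteins act through GAAA repeats in regulatory DNA, 5 promoters of cDC1 genes are shown, 3 that hold such a repeat and those of the 2 surface receptors of the rule. Each is the 250 bases before the annotated start in RefSeq's annotation of mouse build GRCm38.p6, on the strand of the gene, and capitals mark a match to GAAANNGAAA, searched on both strands. Ifi205, an interferon-inducible gene, has its window at chr1:174031756-174032005 (minus strand), Clec9a at chr6:129408612-129408861 (plus strand) and Xcr1 at chr9:123862030-123862279 (minus strand). Gpr141b, an orphan receptor gene, has it at chr13:19732952-19733201 (minus strand), and Tlr11, a receptor for profilin of parasites, at chr14:50357664-50357913 (plus strand).
Ifi205: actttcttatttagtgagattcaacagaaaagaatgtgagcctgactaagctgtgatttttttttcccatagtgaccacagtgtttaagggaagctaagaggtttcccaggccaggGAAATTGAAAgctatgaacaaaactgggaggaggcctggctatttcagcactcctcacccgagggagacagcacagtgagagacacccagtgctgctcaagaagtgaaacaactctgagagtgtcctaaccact
Gpr141b: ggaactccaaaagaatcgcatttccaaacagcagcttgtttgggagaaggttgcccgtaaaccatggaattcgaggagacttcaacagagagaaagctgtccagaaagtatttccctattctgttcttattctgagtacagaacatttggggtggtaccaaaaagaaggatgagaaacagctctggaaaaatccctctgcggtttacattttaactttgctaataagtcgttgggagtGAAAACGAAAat
Tlr11: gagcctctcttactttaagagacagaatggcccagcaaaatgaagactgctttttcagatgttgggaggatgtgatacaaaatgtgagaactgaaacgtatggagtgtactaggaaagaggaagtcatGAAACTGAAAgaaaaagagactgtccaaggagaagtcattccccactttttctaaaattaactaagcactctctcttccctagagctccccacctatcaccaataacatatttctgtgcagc
Clec9a: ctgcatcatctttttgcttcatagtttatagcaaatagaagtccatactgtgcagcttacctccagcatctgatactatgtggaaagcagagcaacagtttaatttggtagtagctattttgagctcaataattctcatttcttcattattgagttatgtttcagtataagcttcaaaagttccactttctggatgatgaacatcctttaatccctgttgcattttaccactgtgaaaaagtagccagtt
Xcr1: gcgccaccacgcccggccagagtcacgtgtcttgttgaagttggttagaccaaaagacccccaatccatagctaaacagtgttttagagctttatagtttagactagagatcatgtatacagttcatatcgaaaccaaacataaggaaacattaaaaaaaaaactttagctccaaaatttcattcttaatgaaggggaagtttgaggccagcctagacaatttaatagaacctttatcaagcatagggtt
The matches began 134, 12 and 122 bases before the starts of Ifi205, Gpr141b and Tlr11, and the windows of Clec9a and Xcr1 held none. Of 33 windows of cDC1 genes, 3 held the motif (9.09%), against 978 of 32851 windows over all genes (2.98%). The 33 windows belong to the 28 genes that RefSeq's table matched, of 35 that join the rule's markers, 12 check genes, an identity list and the 10 genes highest over cDC2-like cells, all described in the text. A match is a description of letters and not a site of binding.

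The label was checked with 12 cDC1 genes that the rule did not use, namely Irf8, Batf3, Itgae, Cadm1, Tlr3, Cd24a, Flt3, Zbtb46, Snx22, Sept3, Ifi205 and Gcsam. A median member held UMIs of 8 of them in the WT library and of 7 in the pool, with 36 and 47 UMIs in all. Some of the 12 are common in other classes: with cells thinned to 3000 UMIs, Cadm1 was read in 78.7% of KC-like cells of the WT library and 64.0% of those of the pool, Irf8 in 63.2% and 46.4%, and Cd24a in 54.5% and 61.2% of B cell-like cells. The check therefore says little of members with few marker UMIs. The members form a range and not a block. In the WT library 21 members had only 3 or 4 marker UMIs, 24 had 5 to 9 and 177 had 10 or more, and the check genes had medians of 2, 9 and 43 UMIs in these bands. The pool had 32, 18 and 111 members in the same bands, with medians of 6, 10.5 and 58 UMIs.

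The lowest band looked least like cDC1 in both libraries. Levels are given in CPM, UMIs of a gene summed over cells and scaled to the class total. Irf8 stood at 268 CPM there and at 2916 in the highest band of the WT library, and at 305 and 2254 CPM in the pool. Csf1r, the receptor of macrophage growth factor, ran the other way, from 772 to 100 CPM and from 1352 to 108 CPM. The lowest band held 27.9% of the members' UMIs of a KC marker list in the WT library and 68.6% in the pool. For an endothelial list it held 45.0% and 25.3%. Of all UMIs of the members it held 93206 of 1431176 and 255892 of 1591401. A cDC2 marker list stood at 13722 and 12974 CPM there, against 2483 and 2964 in the highest band. In cDC2-like cells, defined below, it stood at 13605 and 14002 CPM. A monocyte list stood at 12960.5 and 10918.7 CPM in the lowest band and at 3197 and 3512 in the highest. At the edge of the rule, 13 and 18 members had exactly 3 marker UMIs and 196 and 349 CPM of Irf8, while 50 and 41 cells just outside with exactly 2 had 265 and 207 CPM. The check genes were best read in the members with 10 or more marker UMIs, which are 0.758% (0.651 to 0.878%) and 0.566% (0.466 to 0.681%) of kept cells. Values for these members are given beside many of the results.

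**Figure D1:**
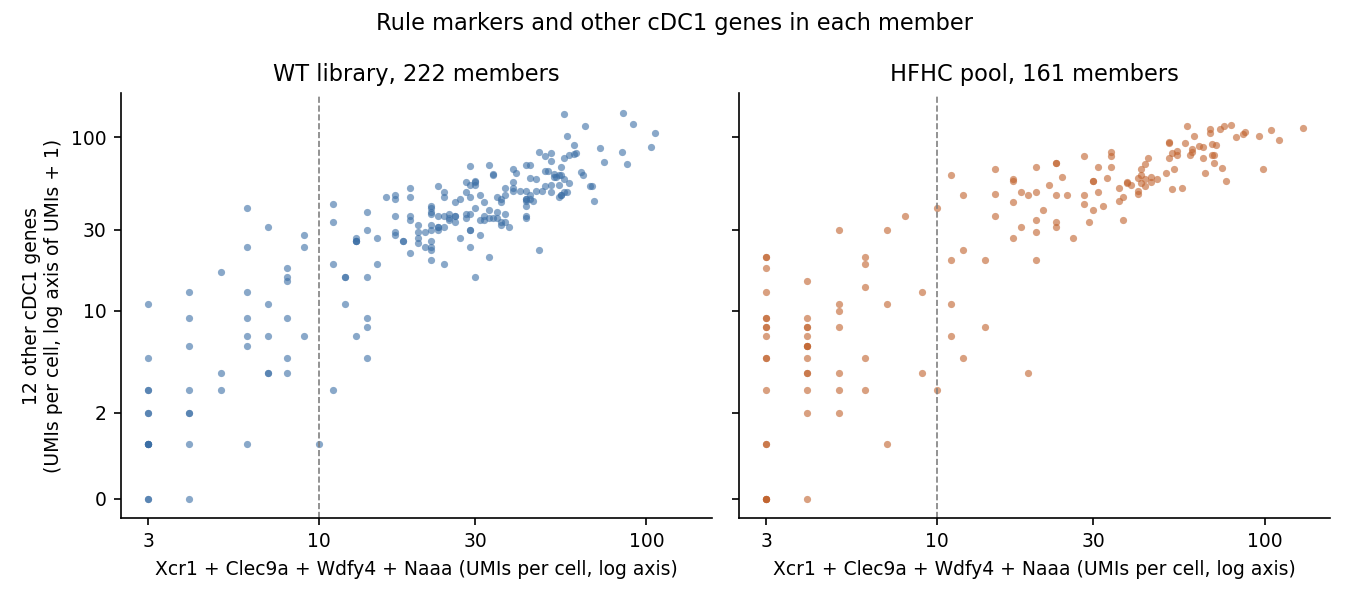
Each point is 1 member, with the UMIs of the 4 rule markers on the x axis (log axis) and the UMIs of the 12 other cDC1 genes, plus 1, on the y axis (log axis), for the WT library (222 members) and the HFHC pool (161 members). Right of the dashed line at 10 marker UMIs most members also have many UMIs of the other genes, and left of it, where 45 and 50 members stand, many have few or none.

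The rule's own genes were read in most members. Naaa, an acid amidase of lysosomes, gave UMIs in 205 of 222 and 142 of 161 members, Clec9a in 199 and 152, Wdfy4 in 193 and 130, and Xcr1 in 178 and 104. Per member Xcr1 ran from 0 over a median of 5 to 23 UMIs in the WT library and from 0 over 4 to 39 in the pool. In sum these genes stood at 1841 and 1266 CPM (Naaa), 608 and 488 (Clec9a), 1169 and 611 (Wdfy4) and 980 and 727 (Xcr1).

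The lineage transcription factors were present in both libraries. Irf8 stood at 2547 CPM (2465 to 2631) in the WT library and 1790 (1724 to 1857) in the pool, a log2 ratio of pool over WT library of -0.51 (-0.58 to -0.44). Id2 stood at 2510 and 1609 CPM (log2 ratio -0.64), and Batf3 at 126 (108 to 146) and 84.2 (70.5 to 99.7) CPM. Zbtb46, the factor common to conventional dendritic cells, was close to level at 121 and 111 CPM, as was Bcl6 at 117 and 96.1 CPM. Irf8, Id2 and Batf3 stood lower in the pool, but none of the 3 passed 2-fold. In members with 10 or more marker UMIs Irf8 stood at 2916 and 2254 CPM. Such members were 79.7% of all members in the WT library and 68.9% in the pool. The part of this in the 3 ratios was not tested. With each cell thinned to 3000 UMIs, which 208 and 157 members reached, Irf8 was read in 92.3% and 85.4% of members (94.1% and 91.3% at full depth) and Batf3 in 32.2% and 24.2%. In thinned B cell-like cells, which should lack Batf3 while B cells do express Irf8, Batf3 was read in 0 of 66 and 0.294% of 340, and Irf8 in 56.1% and 50.0%. Batf3 was also read in 19.1% and 15.3% of thinned cDC2-like cells and in 11.7% and 18.5% of KC-like cells. Median UMIs were 1363.5 and 2712.5 in the B cell-like cells before thinning.

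Over all genes, 4455 had at least 100 UMIs in the members of both libraries together. Of these, 233 (5.23%) were at least 2-fold higher in the pool and 109 (2.45%) at least 2-fold lower, 342 (7.68%) in either direction, and the median log2 ratio was 0.08. Among members with 10 or more marker UMIs, 3583 genes had enough UMIs, of which 124 (3.46%) were higher and 84 (2.34%) lower, 208 (5.81%) in either direction. Most of the lists were near that background. Of 22 cDC1 identity genes with enough UMIs that the rule did not use, 1 was at least 2-fold higher and 2 lower (median 0.04), and 1 and 1 in members with 10 or more marker UMIs (median 0.18). With the rule's 4 genes, which chose the members, the median of the 26 was -0.14. Of 19 dendritic cell transcription factors, 2 were higher and 1 lower (median -0.16), and 0 and 1 of 16 in members with 10 or more marker UMIs (median -0.23).

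Itgae, the integrin chain CD103 that marks tissue cDC1, was the identity gene with the lowest ratio. It stood at 154 CPM (135 to 176) in the WT library and 50.3 (39.9 to 62.6) in the pool, a log2 ratio of -1.61 (-2.01 to -1.24), and at 182 and 66.6 CPM in members with 10 or more marker UMIs. It was read in 82 of 222 and 21 of 161 members at full depth. Thinned to equal depth, it was read in 30.3% (24.1 to 37.0%) and 9.55% (5.45 to 15.3%) of members, against 0 of 66 and 0.294% of B cell-like cells. Sept3, a septin, was also lower in the pool at 365 and 173 CPM (log2 ratio -1.08). Gpr171, a receptor for a neuropeptide, was the higher one at 43.3 and 118 CPM (log2 ratio 1.42, 1.02 to 1.88). Without the limit on genes the log2 ratios were -1.80 for Itgae, -1.17 for Sept3 and 1.21 for Gpr171.

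The remaining identity genes lay closer together. Cd24a stood at 600 and 642 CPM, Cadm1, an adhesion molecule, at 603 and 493, and Ppt1, a lysosomal thioesterase, at 1409 and 1544. Rab7b, a small GTPase of endosomes, stood at 372 and 386 CPM, Ifi205 at 316 and 393 and Btla, an inhibitory receptor, at 252 and 309. Thinned, Cadm1 was read in 59.1% and 47.8% of members, Rab7b in 59.6% and 51.0% and Ppt1 in 88.5% and 83.4%, with Cadm1 in 6.06% and 1.47% of B cell-like cells but in 78.7% and 64.0% of KC-like cells, so that it does not set cDC1 apart from KCs. Flt3 was lower in the pool at 561 and 365 CPM (log2 ratio -0.62) and was read in 73.6% and 57.3% of thinned members. Among the other transcription factors, Cebpb stood at 136 and 52.8 CPM (log2 ratio -1.35). Zeb2, a factor of monocytes and pDCs, stood at 31.4 and 129 CPM (log2 ratio 2.02, and 0.80 in members with 10 or more marker UMIs).

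What set cDC1 apart from the neighbouring dendritic cells was measured within each library, against 143 and 104 cDC2-like cells (Cd209a with at least 3 UMIs of Cd209a, Clec10a, Mgl2 and Sirpa) and 263 and 82 pDC-like cells (Siglech with at least 3 UMIs of Siglech, Ccr9, Bst2 and Tcf4). Genes that define either class compared were left out. Against cDC2-like cells, 86 of 2964 genes (2.9%) were at least 2-fold higher in cDC1 in both libraries and 85 (2.87%) lower, 171 (5.77%) in all. Against pDC-like cells, 272 of 3115 (8.73%) were higher and 272 (8.73%) lower, 544 (17.5%) in all. Median UMIs per cell were 3875 and 6709.5 in cDC2-like cells and 2898 and 5531.5 in pDC-like cells.

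Gpr141b led the genes higher than in cDC2-like cells. It had 478 and 498 UMIs in cDC1 against 1 and 1, a ratio of CPM of 194 (34.7 to 7683) in the WT library and 226 (40.4 to 8939) in the pool. Gcsam, a signalling adaptor known from germinal centre B cells, had 252 UMIs against 1 and 169 against 0, a ratio of 102 (18.2 to 4058) and of at least 25.5. Fzd1, a Wnt receptor, had 113 and 150 UMIs against none, which is at least 15.3-fold and 22.7-fold higher with the floor of 3 UMIs set over the class. Ttc39a had no UMI in cDC2-like cells either and was at least 15.3-fold higher in the pool.

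The other genes of the leading 10 were present in cDC2-like cells at low levels. Rab7b was higher by log2 ratios of 5.18 and 4.80, Ppt1 by 4.06 and 3.78 and Cd36, a scavenger receptor for lipids, by 4.14 and 3.74. Sept3 was higher by 4.73 in the WT library and at least 41.6-fold in the pool, where cDC2-like cells had no UMI. P2ry14, a receptor for UDP-glucose, and Snx22, a sorting nexin, had 2 UMIs each in cDC2-like cells of the WT library, giving ratios of 32.1 (8.74 to 267) and 22.7 (6.15 to 190). Of the 18 identity genes outside the rule with enough UMIs, 13 were at least 2-fold higher in both libraries, with medians of 3.40 and 3.36 beside -0.03 and -0.01 over all genes.

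Irf8 was higher in cDC1 than in cDC2-like cells by log2 ratios of 3.80 and 3.43, Mycl, a Myc family factor of dendritic cells, by 3.36 and 3.12, and Id2 by 1.35 and 2.50. Batf3 was higher by 0.88 and 1.08. Klf4 and Zeb2, factors of the monocyte and cDC2 side, were the 2 transcription factors at least 2-fold lower, Klf4 by -1.97 and -1.07 and Zeb2 by -2.35 and -1.18. The other 13 of 18 did not pass 2-fold in both libraries. Among the 10 lowest genes were F13a1, the coagulation factor XIII chain of monocytes (-4.24 and -5.53), Itgam, the integrin CD11b (-3.88 and -2.98), S100a4 (-3.83 and -2.80), Mcemp1 (-3.34 and -3.47) and the chemokine Ccl9 (-2.68 and -2.59). Of 11 cDC2 marker genes outside the class rule, 8 were lower. Cd86, a costimulatory ligand of T cells, was higher in cDC1 by 1.92 and 2.52.

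Against pDC-like cells the picture differed for Irf8, which both classes use: it was lower in cDC1, by -0.96 and -0.91. Id2 was higher by 5.08 and 5.32. Cox6a2, a subunit of cytochrome c oxidase, had 0 UMIs in cDC1 of both libraries against 1038 and 525, which is at least 636-fold and 661-fold lower. Ly6d had 1 and 2 UMIs against 846 and 575, ratios of 1554 (278 to 61453) and 1087 (299 to 8995) in favour of pDC-like cells, and the factor Spib was lower by -7.12 and -7.31. All 10 pDC markers with enough UMIs outside the class rule were at least 2-fold lower in both libraries, with medians of -7.81 and -6.85.

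On the cDC1 side, Gpr141b was at least 86.7-fold and 43.9-fold higher than in pDC-like cells, which had none, and Tlr11 at least 57.0-fold and 21.1-fold. Of 20 identity genes, 16 were higher and 2 lower. The 2 were Cd8a (-2.21 and -1.22) and Gpr171 (-1.31 and -1.32). Tspan33, Slamf8 and Zfp366 had no UMI in pDC-like cells of either library. Their lower bounds ran from 17.6-fold, for Zfp366 in the pool, to 49.2-fold, for Tspan33 in the WT library.

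**Figure D2:**
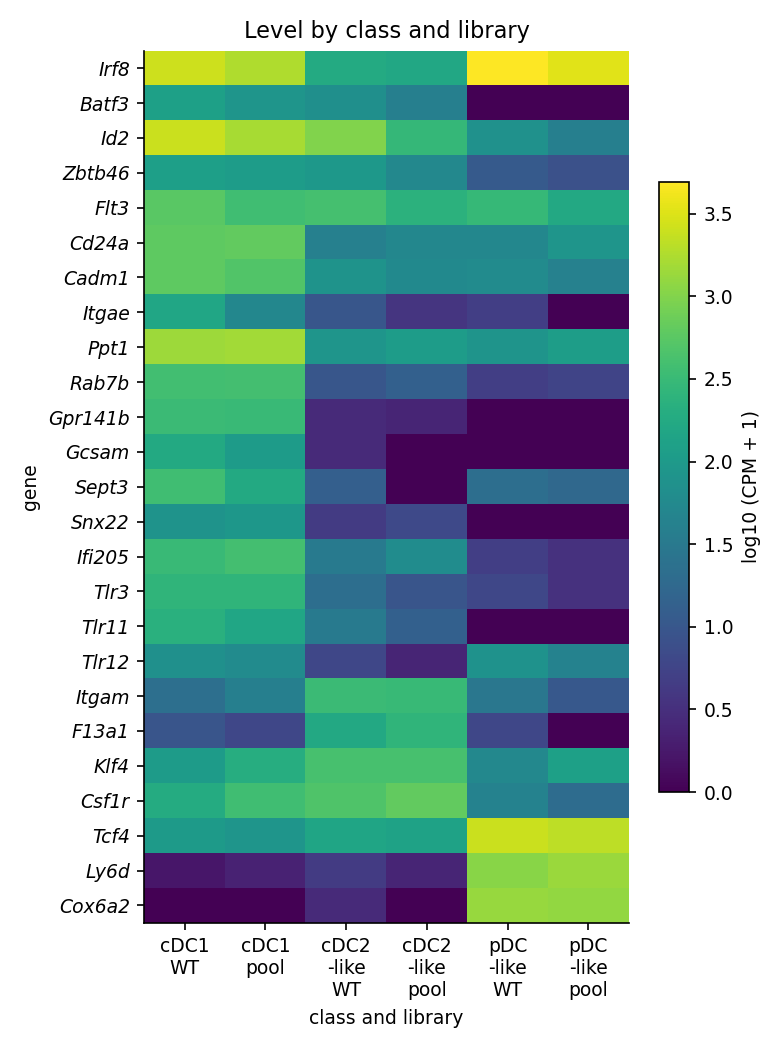
Colour gives the level as log10 of CPM plus 1 for 25 genes (rows) in cDC1, cDC2-like and pDC-like cells of the WT library and the HFHC pool (columns). Gpr141b, Rab7b and Ppt1 are bright in both cDC1 columns only, Itgam and F13a1 are brightest in cDC2-like cells, Ly6d and Cox6a2 in pDC-like cells, and Irf8 is bright in cDC1 and pDC-like cells.

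Antigen presentation genes were read in nearly all members. The MHC class II genes H2-Aa, H2-Ab1 and H2-Eb1 and the invariant chain Cd74 together ran from 0 over a median of 320.5 to 962 UMIs per member in the WT library and from 0 over 432 to 1281 in the pool. Pool members were deeper, and scaled to depth these genes summed to 51487.7 and 43328.5 CPM, lower in the pool. H2-Ab1 was lower in the pool, at 20795 and 11139 CPM (log2 ratio -0.90), and H2-Aa stood at 11268 and 8258. Cd74 went the other way at 12769 and 17839 CPM (log2 ratio 0.48), so that the chains were not shifted together. H2-Ab1 also differed in cDC2-like cells (23319 and 11069 CPM), and so did Cd74 (16292 and 20195).

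Of the 14 genes of the class II list, 1 was at least 2-fold higher and none lower (median -0.17). The 1 was Lgmn, a lysosomal protease that KCs also make, at 43.3 and 109 CPM (log2 ratio 1.31, and 0.07 in members with 10 or more marker UMIs). The protease Ctss stood at 1217 and 1737 CPM, and Ciita, the master regulator of class II, at 537 and 505. None of the 14 was 2-fold apart from cDC2-like cells in both libraries, while 10 of 14 were at least 2-fold higher than in pDC-like cells (medians 2.29 and 2.20), Ciita by 3.09 and 2.98.

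No gene of 21 for cross-presentation passed 2-fold between libraries (median 0.17). Wdfy4, a rule gene, was lowest at -0.94, followed by the immunoproteasome subunit Psmb9 at 411 and 260 CPM and the peptide transporter Tap1 at 430 and 283. The highest were Cybb, the phagosomal oxidase chain, at 230 and 451 CPM (log2 ratio 0.97, and 0.50 in members with 10 or more marker UMIs) and Psmb10, another immunoproteasome subunit, at 63.6 and 114.

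Among 11 sensors of microbes and nucleic acids, 1 was lower and none higher (median 0.03, and -0.05 when scaled by the median of gene ratios). Unc93b1, the chaperone that carries nucleic acid-sensing Toll-like receptors to endosomes, stood at 1170 and 555 CPM (log2 ratio -1.08). Tlr3, the sensor of double-stranded RNA that cDC1 carry, was level at 258 and 263 CPM. The profilin sensors Tlr11 (219 and 150 CPM) and Tlr12 (70.6 and 59.1 CPM) were within 2-fold. Against cDC2-like cells, Tlr3 was higher by 3.53 and 4.77 and Tlr11 by 2.68 and 3.44.

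Chemokine and cytokine transcripts were few and uneven. The 12 members with the most UMIs of the cytokine list held 49.2% of its UMIs in the WT library and the leading 9 held 35.3% in the pool. Of 14 genes with enough UMIs, 4 were at least 2-fold higher in the pool and 2 lower (median 0.18). The median turned to -0.28 with at least 5 marker UMIs (2 higher and 2 lower of 12) and to -0.11 with no Clec4f or Vsig4 UMI allowed, and was 0.35 with at least 10 marker UMIs (2 higher and 1 lower of 10). Higher were the inflammatory chemokines Ccl3 and Ccl4, and Il1b and Tgfb1. The list summed to 2086 and 2123 CPM in all members and to 1330 and 1618 in those with 10 or more marker UMIs. Its median was 1.09 in T cell-like, 0.42 in cDC2-like, 0.15 in KC-like and -0.46 in B cell-like cells. In pDC-like cells it was 1.01, over 2 genes. Whether the rise of Ccl3 and Ccl4 was particular to cDC1 was not tested.

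Ccl3 had 6 UMIs in 4 members of the WT library and 177 in 27 members of the pool, or 4.19 and 111 CPM. Ccl4 had 9 UMIs in 6 members and 157 in 37. Il1b, the gene for interleukin-1 beta, stood at 46.1 CPM (35.7 to 58.7) and 252 (228 to 278), a log2 ratio of 2.43, with UMIs in 23 and 54 members. These 3 are genes that immune cells of several types transcribe on activation. Thinned to equal depth, Il1b was read in 7.21% (4.09 to 11.6%) and 23.6% (17.2 to 31.0%) of members (10.4% and 33.5% unthinned). In thinned B cell-like cells it was read in 12.1% (5.38 to 22.5%) and 2.94%, so that the members' share in the WT library was not above theirs. Only 66 of 1324 B cell-like cells of the WT library were deep enough for this, so that this background is uncertain. Unthinned, Il1b was read in 5.74% of the 1324. It was read in 14.5% and 25.5% of thinned cDC2-like cells and in 44.3% and 32.0% of KC-like cells, so that the pool's share was not above theirs either. In members with 10 or more marker UMIs Il1b stood at 32.5 and 159 CPM.

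The 2 lower cytokine genes rested on a handful of cells. Ccl17, a ligand of Ccr4 made by mature dendritic cells, had 167 UMIs in 8 members of the WT library, 92 of them in 1 member, and 2 UMIs in the pool, 92.8-fold lower (25.3 to 773). Ccl22, its partner ligand, had 313 and 143 UMIs, of which single members held 213 and 92, and its log2 ratio turned from -1.28 to 1.34 when only members without any Clec4f or Vsig4 UMI were taken. Ccl24, listed with too few UMIs for the count, had 94 UMIs in 12 members of the WT library and none in the pool, at least 34.8-fold lower. Cxcl9, the chemokine that draws Cxcr3-bearing T cells, was among the most abundant at 822 and 611 CPM, read in 59 and 52 members. Its log2 ratio was -0.43 over all members and 0.38 in those with 10 or more marker UMIs. Il12b, a subunit of the T helper cytokine interleukin-12, had 13 UMIs in 2 members and 51 in 5, and Il12a had none in either library, which is under the floor of 3 UMIs in each.

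Receptors differed little, with 2 of 17 at least 2-fold higher and none lower (median 0.13). In members with 10 or more marker UMIs none of 15 passed 2-fold in either direction (median -0.08). The highest was Cx3cr1, the fractalkine receptor of monocytes, at 17.5 and 84.8 CPM over all members (log2 ratio 2.23). Ccr2, a receptor that guides cells out of bone marrow, stood at 924 and 1474 CPM (log2 ratio 0.67) and was read in 80.3% and 86.6% of thinned members. Csf1r stood at 189 and 365 CPM (log2 ratio 0.94, and 0.11 in members with 10 or more marker UMIs). Kit, the stem cell factor receptor, was level at 103 and 113 CPM.

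Few members had the transcripts of mature, migrating dendritic cells. Ccr7, the receptor that leads them to lymph nodes, had 19 UMIs in 5 members of the WT library and 25 in 4 of the pool, or 1.44% and 1.27% of thinned members, under the 15.2% and 34.4% of B cell-like cells, which use it too. Fscn1, an actin-bundling protein of such cells, had 37 and 47 UMIs, of which single members held 20 and 43. The rule takes only cells with UMIs of Xcr1 or Clec9a, so that any mature cells without them are left out. The share of mature cells among all cDC1 was therefore not measured. Of 15 maturation genes, 1 was higher and 1 lower (median 0.12). The higher was Cd83 at 99.2 and 226 CPM (log2 ratio 1.18), and the lower was Ccl22. The median was -0.04 without the limit on genes (3 higher and 2 lower of 18) and -0.13 at a mitochondrial limit of 10% (0 higher and 1 lower of 14). It was 0.20 in members with 10 or more marker UMIs (2 higher and 1 lower of 11). With no Clec4f or Vsig4 UMI allowed it was 0.10 (3 higher and 0 lower of 15). Cd86 stood at 136 and 182 CPM and was read in 34.1% and 36.9% of members after thinning (50.0% and 69.6% before).

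The cell cycle genes were the list whose median moved most when the limit on genes was lifted, and it changed sign. Within the limit, all 22 genes with enough UMIs had a lower level in the pool, 9 by at least 2-fold (median -0.90). Without it, 17 of 27 had a higher level, 1 was at least 2-fold lower, and the median was 0.12. The 31 pool cells above the limit held 6809 UMIs of the list, 11157 CPM, and 21 of them had a UMI of Mki67 or Top2a, while the list summed to 4438 and 2579 CPM in the members of the WT library and the pool. With the cells above the limit the sums were 4546 and 4957 CPM. The same 31 cells held 2268 UMIs of the KC marker list, 3716 CPM against 1324 CPM in the pool members within the limit, and the part of these in the cell cycle result was not tested.

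Single genes followed. Top2a, the topoisomerase of dividing cells, stood at 264 CPM (238 to 292) and 93.6 (79.2 to 110) within the limit, and its log2 ratio was 0.56 without it. Mki67, a protein of mitotic chromosomes, stood at 182 and 119 CPM within the limit and had a log2 ratio of 0.96 without it. Hmgb2, a chromatin protein, stood at 738 and 339 CPM and turned to 0.12, and Birc5, a mitotic regulator, turned to 0.25. Pclaf (-2.28, and -0.38 without the limit), Rrm2 (55.9 and 8.17 CPM within the limit, -0.67 without) and Dut (53.8 and 15.1 CPM, -1.48 without), which serve DNA synthesis, stayed lower in the pool. The list's UMIs were also concentrated, with 42.3% in the 12 leading members of the WT library and 39.0% in the 9 leading members of the pool. Within the limit the list's median was -0.72 in cDC2-like and T cell-like cells, -0.14 in KC-like cells, 0.28 in pDC-like cells and 0.48 in B cell-like cells.

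**Figure D3:**
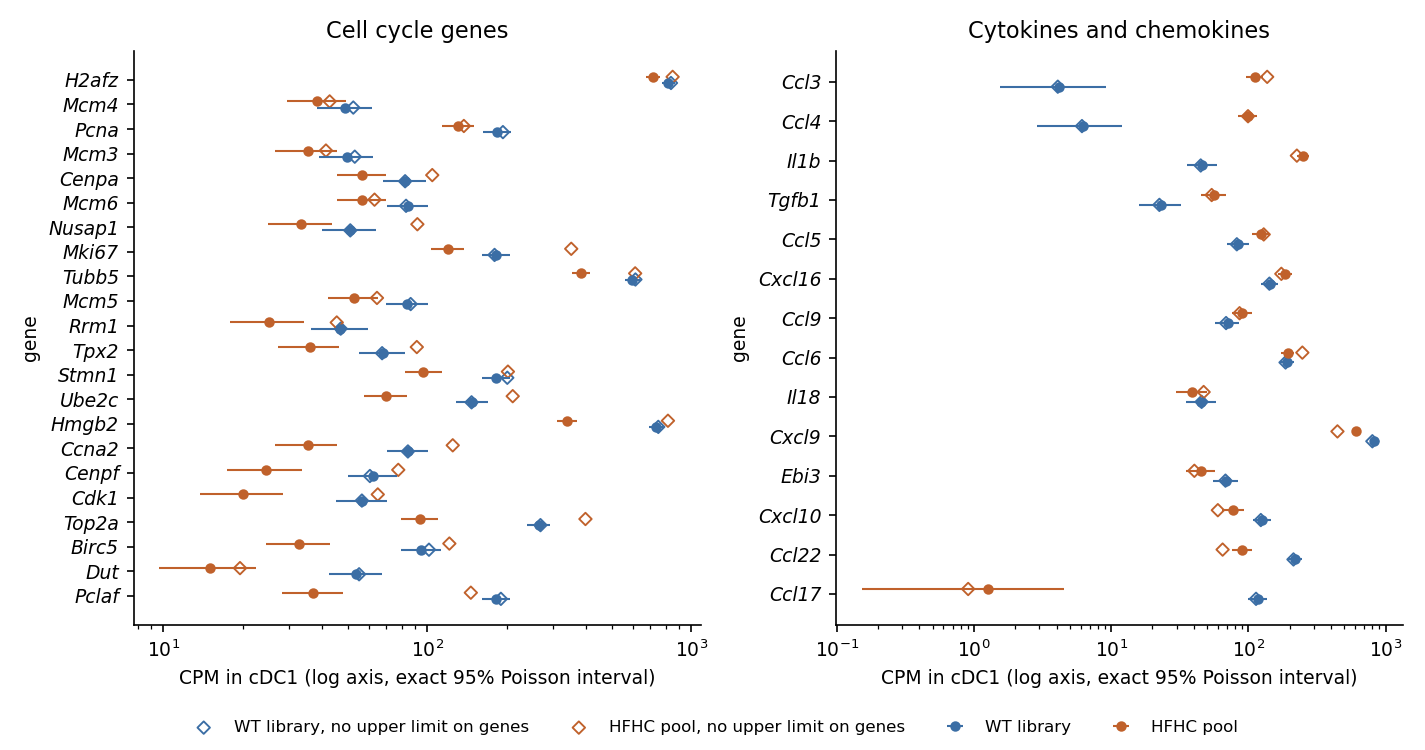
Points give the CPM (log axis) of cell cycle genes (left) and cytokine genes (right) in cDC1 of the WT library and the HFHC pool with exact 95% Poisson intervals, and open diamonds give the CPM without the upper limit on genes. The pool's filled points lie lower for all 22 cell cycle genes, while its open diamonds lie higher for Top2a, Mki67 and Hmgb2, and Ccl3, Ccl4 and Il1b lie higher in the pool either way.

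Of 14 cell death genes, 1 was higher and none lower (median 0.02, -0.07 when scaled by the median of gene ratios and 0.22 in members with 10 or more marker UMIs). Pmaip1, the gene for the pro-death protein Noxa, stood at 92.9 CPM (77.8 to 110) and 324 (296 to 353), a log2 ratio of 1.79 (1.52 to 2.09), and 1.67 without the limit on genes. It was higher in the pool in cDC2-like cells too, at 148 and 208 CPM, and in pDC-like cells at 23.1 and 109. Bbc3, the gene for the related protein Puma, had 2 and 22 UMIs, 9.89-fold higher (2.43 to 86.8). The survival gene Mcl1 was level at 523 and 554 CPM.

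Immediate-early and heat shock genes, which are also known to respond to tissue dissociation, had the highest median of the lists drawn in the plot of list medians, which leaves out the cell type markers. In the pool 15 of 29 were at least 2-fold higher and none lower (median 1.06, and 0.89 in members with 10 or more marker UMIs). Per member they summed to 60.5 UMIs at the median in the WT library and 180 in the pool, not scaled to depth. Scaled, the list summed to 10269 and 19635 CPM. Hspa1a stood at 62.2 CPM (49.9 to 76.5) and 721 (680 to 764), a log2 ratio of 3.52, and Hspa1b at 82.5 and 833. These 2 genes are near-identical copies, so that the split of reads between them is uncertain. Nr4a2, a nuclear receptor, stood at 5.59 and 98.0 CPM (log2 ratio 3.97), Fos at 662 and 1844 and Jun at 298 and 1031, while the mitochondrial chaperone Hspe1 was level at 475 and 451. The list's median was also above 0 in every other class, from 0.73 in B cell-like cells to 0.96 in T cell-like cells.

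Other response lists were closer to level. None of 19 interferon response genes passed 2-fold (median 0.12, -0.01 without the limit on genes and 0.51 over 11 genes in members with 10 or more marker UMIs), from Bst2 at 106 and 57.8 CPM to Ifi27l2a at 85.9 and 168. Of 7 glucocorticoid response genes, 1 was lower (median -0.35, -0.79 in members with 10 or more marker UMIs and 0.03 over 6 genes with no Clec4f or Vsig4 UMI allowed), Tsc22d3, the gene for the protein Gilz, at 194 and 76.0 CPM (log2 ratio -1.35). The glucocorticoid list's median was below 0 in every other class too, from -0.77 in KC-like to -0.33 in B cell-like cells. Of 13 glycolysis genes, 1 was higher (median -0.01, and 0.19 with 11 of 13 above 0 in members with 10 or more marker UMIs), Eno1 with a log2 ratio of 1.11, while Ldha and Pgk1 had -0.17 and -0.03.

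Of 20 genes for lipid handling, 3 were higher and none lower (median 0.44), and 1 higher and 2 lower of 16 in members with 10 or more marker UMIs (median 0.20). Scd1, the desaturase that makes oleate, stood at 45.4 and 150 CPM (log2 ratio 1.71), Pltp, a phospholipid transfer protein, at 39.8 and 104, and Apoe, an apolipoprotein that macrophages and hepatocytes make in quantity, at 533 and 1619. Apoe turned to 295 and 115 CPM in members with 10 or more marker UMIs, so that its direction depends on the members with few. Lipa, the lysosomal acid lipase, stood at 180 and 345 CPM. Cd36 (455 and 350 CPM) and Fasn, the fatty acid synthase (67.8 and 38.3 CPM), stood lower in the pool.

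**Figure D4:**
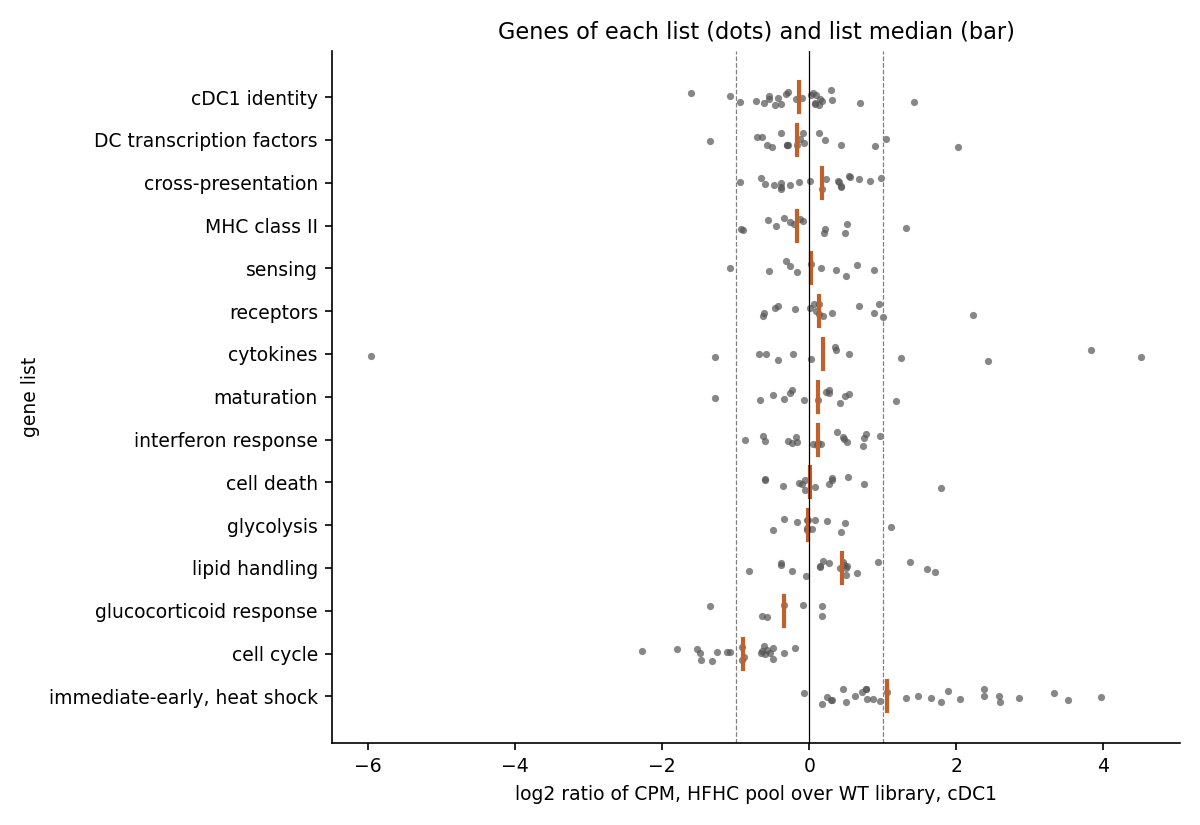
Each dot is the log2 ratio of CPM in cDC1, HFHC pool over WT library, of 1 gene, rows are 15 gene lists (that of cDC1 identity with the rule's 4 genes), bars are list medians and dashed lines mark 2-fold. Most medians lie near 0, that of the immediate-early and heat shock genes is 1.06, and that of the cell cycle genes is -0.90 within the limit of 4000 genes and 0.12 without it.

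Transcripts that mark other cell types were found in the members, and they differed between the libraries. Their part in the ratios of single genes was not tested. A list of 12 KC markers summed to 489 CPM in the WT library and 1324 in the pool, and 6 of 6 genes with enough UMIs were at least 2-fold higher (median 2.35). In members with 10 or more marker UMIs only 1 gene of it had enough UMIs, with a log2 ratio of -0.90. The list's median was 0.75 in cDC2-like cells, over 3 genes, but -0.28 in KC-like, -1.39 in B cell-like and -1.33 in T cell-like cells. C1qa, a complement chain of macrophages, stood at 26.5 and 161 CPM over all members and at 15.0 and 8.43 in those with 10 or more. The KC-defining Clec4f, limited by the rule, had 51 and 20 UMIs.

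A list of 12 endothelial markers ran the other way, at 1634 and 835 CPM, with 4 of 6 genes lower (median -2.15, and -0.33 in members with 10 or more marker UMIs). The neutrophil list summed to 389 and 30.8 CPM, with 79.9% of its UMIs in 12 members of the WT library and 139 of 557 in 1 member, while the median member had 0. Its 2 genes with enough UMIs were S100a8, with 177 and 2 UMIs, 98.4-fold lower in the pool (26.8 to 819), and S100a9, with 195 and 3, 72.3-fold lower (24.4 to 354). Both genes, of 10 listed, reached the minimum count of UMIs through the WT library alone. The size of the list's median in cDC1, -5.91 over these 2 genes, therefore depends on that minimum. With a minimum of 20 UMIs per gene the median was -4.10 over 6 genes. In the other classes, at the main minimum, the list's median lay between -1.13 and -4.83, over 3 to 7 genes. Hepatocyte genes summed to 896 and 1557 CPM, monocyte genes to 4577 and 5261 and pDC genes to 480 and 439. The cDC2 list summed to 4095 and 5271 CPM, and 5 of its 12 genes with enough UMIs were at least 2-fold higher in the pool (median 0.92), but 0 of 6 in members with 10 or more marker UMIs (median 0.38). The monocyte and cDC2 lists share Ccr2, which was read in 80.3% and 86.6% of thinned members. In members with 10 or more marker UMIs the monocyte list stood at 3197 and 3512 CPM and the cDC2 list at 2483 and 2964. In those with 3 or 4 they stood at 12960.5 and 10918.7 CPM and at 13722 and 12974. The part of other cell types in these sums was not tested. B cell genes summed to 252 and 349 CPM, NK cell genes to 111 and 156, T cell genes to 36.3 and 40.8 and platelet and erythroid genes to 4.89 and 6.91. Beside the genes set to 0 by the rule, Cox6a2, Klk1, Ngp, Prf1, Pax5 and Ppbp had no UMI.

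The 10 highest and 10 lowest genes between the libraries, among those with at least 10 UMIs in each, were then followed through the other classes. Of the 10 highest, 7 were at least 2-fold higher in the pool in every other class that had 100 UMIs of the gene. These were Gnb2, a G protein subunit (21.7 and 343 CPM, log2 ratio 3.94), Gm9844, a predicted gene that may share reads with a copy (54.5 and 630 CPM), Ctsd, a lysosomal protease (7.69 and 91.1), Ppp1r15a, a stress-induced phosphatase subunit (14.0 and 118), Uox, a liver enzyme (16.8 and 132), Hspa1a and Hspa1b. The other 3 were Egr3, Igf1 (9.78 and 75.4 CPM) and Ms4a7, a macrophage gene at 7.69 and 62.2 CPM in 2 and 19 members. In members with 10 or more marker UMIs 6 of the 10 still had 100 UMIs, namely Gnb2, Gm9844, Ppp1r15a, Egr3, Hspa1a and Hspa1b, and all 6 were at least 2-fold higher. These members held 1199620 of 1431176 UMIs in the WT library and 1186085 of 1591401 in the pool. The highest and lowest genes were chosen from the same UMIs, so that their values in these members are a description and no independent support.

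Among the 10 lowest, Dcn, a proteoglycan of stromal cells, stood at 85.9 and 6.91 CPM (log2 ratio -3.52) in 12 and 9 members. Igfbp7 stood at 302 and 41.5 CPM (-2.85), followed by Plpp3, Tinagl1, Ehd3, Ptprb, Aqp1, Clec4g, Gpihbp1 and Qpct, with log2 ratios from -3.10 to -2.52. In members with 10 or more marker UMIs, Igfbp7 and Qpct still had 100 UMIs and were lower by log2 ratios of -3.61 and -2.24, while the other 8 had 33 to 70 UMIs. Of the 10, 1 was at least 2-fold lower in every other class with 100 UMIs of it, and 7 were in at least 1 such class. Clec4g and Ptprb are on the endothelial list. In the WT library that list stood at 11276 CPM in members with 3 or 4 marker UMIs and at 959 in those with 10 or more. The part of such transcripts in these ratios was not tested.

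**Figure D5:**
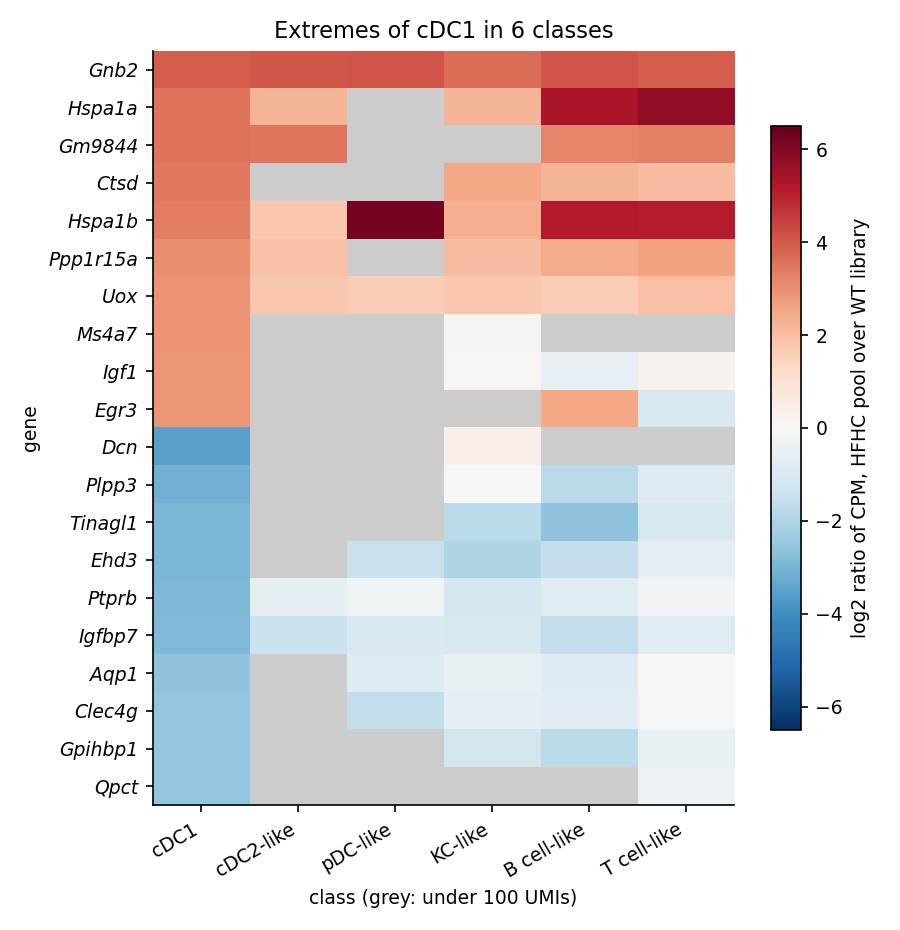
Colour gives the log2 ratio of CPM, HFHC pool over WT library, for the 10 highest and 10 lowest genes of cDC1 (rows) in 6 classes of cells (columns), and grey marks a class with under 100 UMIs of the gene. Gnb2, Uox and the heat shock genes Hspa1a and Hspa1b are high in each class that has a value, while Dcn and Plpp3 are low in cDC1 and near 0 in KC-like cells.

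Chil1, the gene that the study deleted, was barely read in these cells. It had 4 UMIs in 3 members of the WT library, 2.79 CPM (0.762 to 7.16), and 0 in the pool, which is under the floor of 3 UMIs. No difference was detectable at this depth.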

How the data were processed

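Single cells of mouse liver were measured in 2 libraries, 1 per group. The authors made the deposited counts with the BD Rhapsody pipeline 1.10.1 on GRCm38, per the file headers: each value is the whole number of error-corrected UMIs that a cell had of a gene, not scaled. The submitters' processing notes name Seurat. The total deposited was 53720863 UMIs in 30734 cells and 71981673 in 21601, and the filter left 49509045 and 52044785. The remaining sample, a tag library, has no table of its own and was not analysed here.

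UMIs were summed over the cells of a class, scaled to CPM and set against each other as log2 ratios with 1 UMI added, for genes reaching 100 UMIs over both groups. A gene was counted past 2-fold, with no test. Intervals are exact: Poisson for sums, conditional binomial for ratios, Clopper-Pearson for shares. A sum of 0 was set to a floor of 3 UMIs. Cells of other classes lacked Xcr1 and Clec9a and had at least 3 UMIs of Clec4f and Vsig4 (KC-like), 2 of Cd79a (B cell-like) or Cd3e with at least 3 of Cd3e, Cd3d and Cd3g (T cell-like). Scrublet (scanpy 1.11.5, seed 42, 30 components) called 8.17% and 2.00% of kept cells doublets, 3 members in each library, and these were kept except in an alternative. Python 3.11.15, numpy 2.4.6, pandas 2.3.3, scipy 1.17.1 and matplotlib 3.10.9 were used. The ratio code was tested on simulated data.

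The text names the genes of the rule, genes of the lists (highest, lowest and most abundant), the 10 highest and 10 lowest ratios of each comparison, and Chil1. Members, lists and classes were chosen with earlier results of these data known. The band of 10 or more marker UMIs was chosen after seeing the data. Ifi30, Clec7a and Cxx1b were not analysed here, and a few list members are not reported here. Other processing alternatives are in the closing section.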

Additional observations from a re-analysis of the deposited data

How the results depend on the processing

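No paired analysis was possible because each group is 1 library. The share of cDC1 in the WT library was 0.758% with at least 10 marker UMIs, 1.17% with at least 2 and 0.672% with no Clec4f or Vsig4 UMI allowed. In the pool it was 0.566%, 1.03% and 0.678% under the same choices, 0.657% with at least 5 marker UMIs and 0.622% with cells thinned to 1000 UMIs, which gave 1.06% in the WT library. Genes at least 2-fold apart between the libraries numbered 342, and 208 with at least 10 marker UMIs, 24 after thinning and 1179 with a minimum of 20 UMIs per gene. Against cDC2-like cells the 171 genes became 18 and 461 under the last 2 choices, and against pDC-like cells the 544 became 87 and 1364. Thinning leaves few genes with enough UMIs to be counted. Of calls between the libraries, 68.1% were higher in the pool, 60.6% when scaled by the median of gene ratios and 76.0% without the upper limit on genes. The log2 ratio of Ms4a7 turned to -0.0094 after thinning, and the median of the KC markers to -0.90 with at least 10 marker UMIs. The other 19 of the 20 highest and lowest genes kept their sign in every alternative. The median of the cell cycle list turned from -0.90 to 0.12 without the upper limit on genes and to 0.03 after thinning, over 3 genes, and was -0.51 with no Clec4f or Vsig4 UMI allowed. Of 24 list medians, 20 kept their sign with at least 5 and with at least 10 marker UMIs, 21 with no Clec4f or Vsig4 UMI allowed, 23 with a mitochondrial limit of 10% (not that of maturation, -0.13) and 22 with the other scaling, and after thinning 8 of 15 did. Without the upper limit 20 did, the others being those of the cell cycle, interferon (-0.01), maturation (-0.04) and glycolysis (0.08) lists. With 1 library per group, depth sets only counting error, and the spread between mice is unknown.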
